A study of Mus musculus with 12 samples.

Results

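Striatal RNA of mice with an expanded huntingtin allele was compared with that of mice with a short one, in animals that kept the glutamate receptor mGluR5. The Q111 striata carried the genotype HdhQ111/Q111/mGluR5+/+, and their controls were HdhQ20/Q20/mGluR5+/+. These were 6 of the 12 arrays of the study, 3 in each group. All genes entered the comparison, with 1 row per gene symbol, and 16721 of 19938 genes were bright enough to be tested. The remaining 6 arrays came from striata of the same huntingtin alleles without mGluR5. Their values are given only beside those of the mice that kept it. All 12 arrays entered the choice of probe set, the brightness filter and the estimate of spread behind the tests.

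Huntington's disease is caused by a lengthened CAG repeat in the huntingtin gene, Htt (Hdh in the older mouse nomenclature), which lengthens a glutamine stretch in the protein. The projection neurons of the striatum, which use GABA and receive dense dopamine and glutamate input, are the cells most affected. mGluR5, encoded by Grm5, is a metabotropic glutamate receptor that couples to phospholipase C and is abundant in these neurons.

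The Q111 mice were homozygous for a knock-in allele named for a long glutamine stretch, and the Q20 controls were homozygous for a knock-in allele with a short one, so neither group carried an unaltered Htt gene. All animals were male, were 90 days old and had a mixed background of 129, CD-1, C57BL/6 and FV stock. With such a background, DNA differences between stocks cannot be told apart from an effect of the huntingtin allele wherever they were distributed unequally between the groups. Nothing in the labels says that each array stands for its own animal, and the p-values then measure only the spread between these samples, which may be technical.

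Signals are log2 values on whole-transcript arrays, so a difference of 1 is a doubling. Array medians ran from 7.05 to 7.16, and the 25th percentile below which a signal was treated as dim ran from 5.69 to 5.94. Any 2 of the 12 arrays correlated with r between 0.978 and 0.993 across probe sets. The interquartile range of an array, its width, averaged 2.73 ± 0.19 in the Q111 striata and 2.80 ± 0.08 in the Q20 striata (SD, n = 3 each). The Q111 arrays differed most in width, with replicate 3 the narrowest of all 12 at 2.56 and replicate 2 at 2.93. The median standard error of a log2 difference was 0.112, and 95.1% of the tested genes had a 95% confidence interval that lay wholly inside a 1.5-fold change. How precise these values are is limited by the small number of arrays.

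The tissue carried strong striatal signals in both groups. Of 9 striatal markers, 7 were measured, and their levels lay between percentiles 96.2 and 99.7 of the array. Penk, the enkephalin precursor of indirect-pathway neurons, averaged 12.84 ± 0.09 in Q111 and 12.83 ± 0.11 in Q20 striata. Ppp1r1b, which encodes DARPP-32, differed by -0.04 ± 0.09 (SE), with a 95% interval of -0.23 to 0.14. Drd1, the dopamine receptor of direct-pathway neurons, differed by 0.00 ± 0.10, and Drd2, that of indirect-pathway neurons, by 0.00 ± 0.08. Tac1, the substance P precursor, differed by -0.04 ± 0.12, Rgs9 by 0.04 ± 0.09 and Pde10a by -0.03 ± 0.08. None of the 7 passed the test, and their 95% intervals stayed between -0.30 and 0.23.

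Htt itself gave 9.76, 9.84 and 9.73 in the Q111 striata, against 9.86, 10.05 and 9.92 in the Q20 striata. Every Q111 array lay below every Q20 array, as in 5.3% of all tested genes, and the nearest arrays were 0.02 apart. The difference of -0.16 ± 0.08 did not pass the test (adjusted p = 0.782, limma with Benjamini-Hochberg adjustment, 95% interval -0.34 to 0.02). The array reads how much transcript is present and not the length of the repeat. Grm5 averaged 11.94 ± 0.08 in Q111 and 12.00 ± 0.07 in Q20 striata, a difference of -0.06 ± 0.09 (adjusted p = 0.989). In the mice labelled as lacking mGluR5 the Grm5 signal averaged 11.07 in Q111 and 11.06 in Q20 striata.

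A small set of genes separated the groups. At an adjusted p below 0.05, 96 genes were called, 0.574% of those tested, with 50 higher in Q111 striata (0.299%) and 46 lower (0.275%). The median change of all tested genes was -0.01, with 45.9% of genes above 0. Of the 96 genes, 72 changed by at least 1.5-fold (0.431% of the tested genes), 39 higher and 33 lower. Most called changes were moderate: 51 lay between 1.5-fold and 2-fold, 18 between 2-fold and 4-fold and 3 beyond 4-fold, while 24 were under 1.5-fold. The smallest called difference was 0.40 and the median size was 0.70. All 96 had groups that did not overlap, as did 9.69% of all tested genes. The distance between the nearest arrays of the groups ran from 0.15 to 2.03 with a median of 0.41, and it exceeded 1 for 13 genes.

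**Figure D1:**
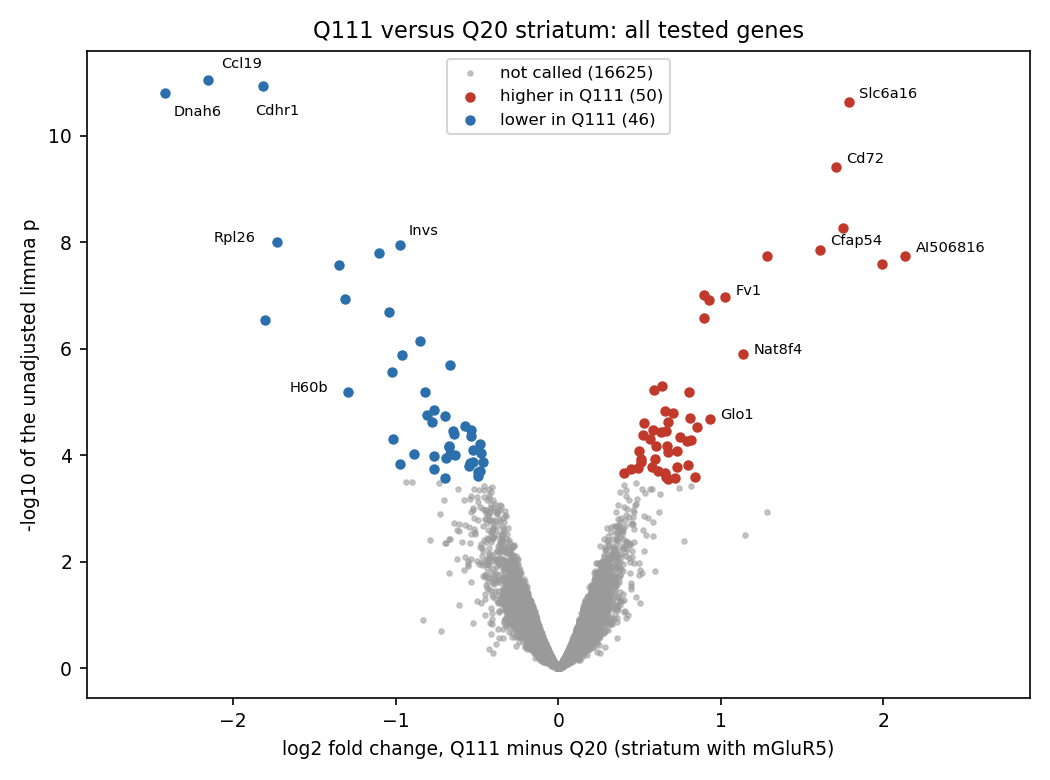
Each point is 1 of 16721 tested genes, with the log2 difference between Q111 and Q20 striata on the horizontal axis and -log10 of the unadjusted limma p on the vertical axis. Red points are the 50 genes called higher and blue points the 46 called lower in Q111 striata, and a few with large changes stand apart from the bulk around 0.

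The criteria in the series text, a p below 0.05 with a change of at least 1.5-fold, applied to the unadjusted limma p, took 99 genes (0.592%), 48 higher (0.287%) and 51 lower (0.305%), of which 72 also passed the adjusted test. An unadjusted p below 0.05 alone took 1144 genes, 6.84% of those tested. With any single array left out, 44 to 128 genes were called. The most came without Q111 replicate 2 and the fewest without Q20 replicate 3 (44), Q111 replicate 1 (45) and Q20 replicate 2 (47), and 35 of the 96 genes stayed called whichever of the 12 arrays was left out. Those 35 included 17 higher genes and 18 lower ones, and they are marked below as kept. Fitted on the 6 compared arrays alone, 47 genes were called.

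Called genes are grouped below by known role, by hand and with their values known, and no such grouping was tested. The largest rises were led by transcripts with little known function. AI506816, an expressed sequence on chromosome 5, gave 6.10, 6.80 and 6.80 in the Q111 striata, against 4.003, 4.67 and 4.62 in the Q20 striata. The Q20 level was dim, so the difference of 2.14 ± 0.20 (adjusted p = 2.54e-05) has no exact size. It was dim in both groups without mGluR5 too, so it was tested only through the Q111 arrays with mGluR5. 4930578G10Rik, a cDNA clone with no position in the annotation used, gave 6.42, 7.29 and 6.31 in the Q111 striata, against 4.72, 4.77 and 4.56 in the Q20 striata, again dim in Q20, with a difference of 1.99 ± 0.19 (adjusted p = 3.19e-05). It was dim in the Q20 striata without mGluR5 as well, so it was tested only through Q111 arrays, with and without mGluR5. In both transcripts the nearest arrays of the groups stood more than 1 apart, and both calls were kept. Gm1604a, a predicted gene on chromosome 17, gave 6.17, 6.45 and 6.33 in the Q111 striata, against 5.04, 4.97 and 5.09 in the Q20 striata. Its Q20 level was dim too, the difference was 1.28 ± 0.12, and the call was kept. Without the Q111 arrays with mGluR5 it would not have been bright enough, so it was tested only through them. Snord53, a small nucleolar RNA of the class that guides methylation of ribosomal RNA, gave 8.80, 8.26 and 8.31 in the Q111 striata, against 6.66, 6.70 and 6.76 in the Q20 striata (difference 1.75 ± 0.15, kept). It falls outside the rule for naming genes and was chosen after its values were seen.

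**Figure D2:**
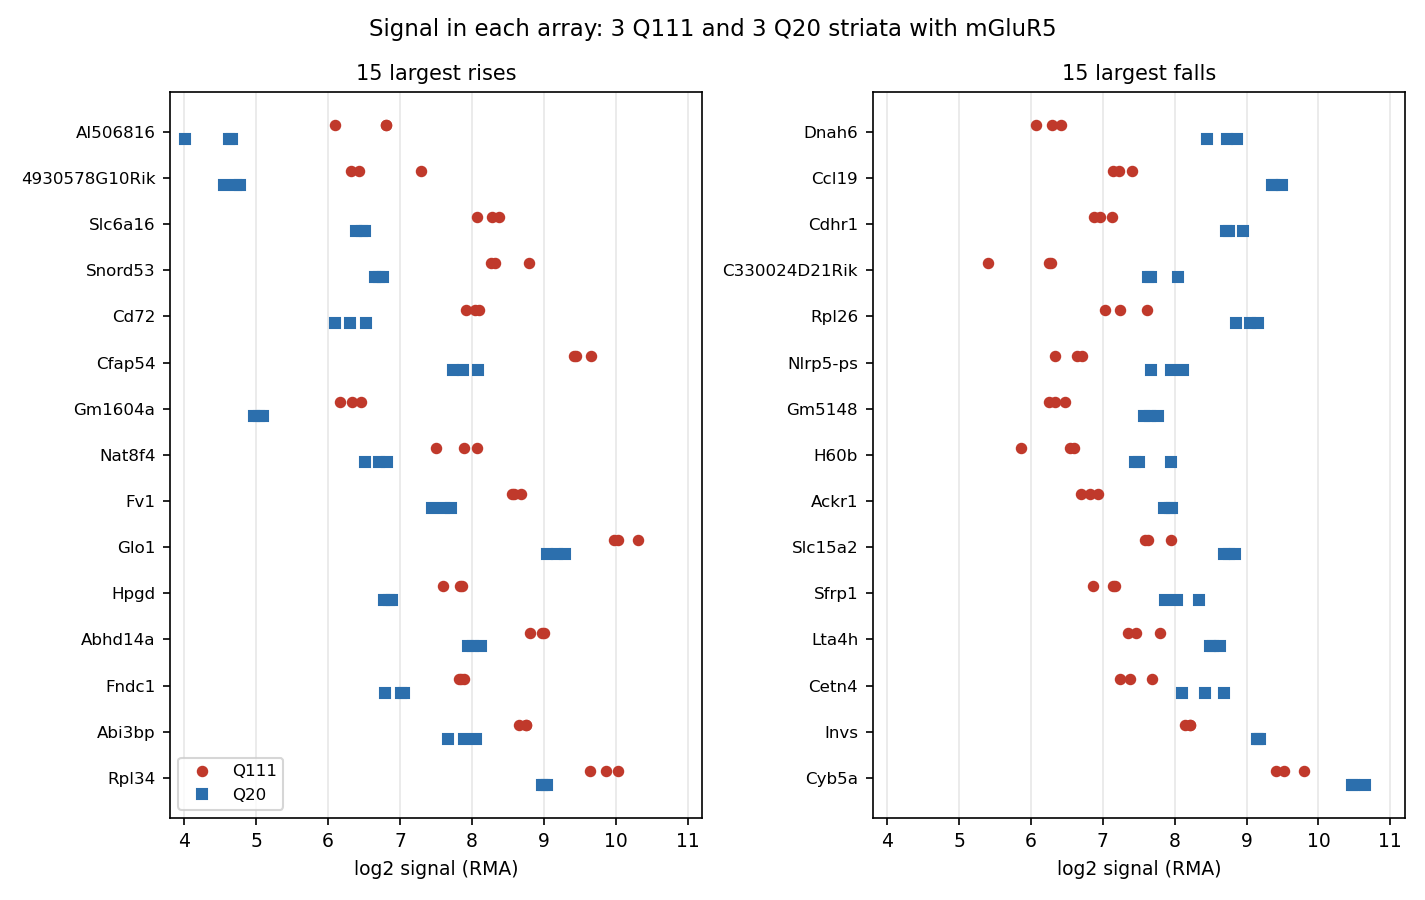
The log2 RMA signal of each array is drawn for the 15 largest rises (left panel) and the 15 largest falls (right panel), with red circles for the 3 Q111 striata above blue squares for the 3 Q20 striata in each row. Circles and squares do not overlap in any row, and the distances between them range from the wide gaps of Dnah6 and Ccl19 to the narrow one of Cetn4.

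A pair of membrane proteins rose over 3-fold. Slc6a16, an orphan member of the neurotransmitter transporter family SLC6, gave 8.28, 8.37 and 8.08 in the Q111 striata, against 6.51, 6.39 and 6.48 in the Q20 striata. The lowest Q111 array stood 1.57 above the highest Q20 array, and the difference of 1.79 ± 0.10 was a 3.45-fold rise (adjusted p = 9.82e-08, kept). Cd72, a receptor of B lymphocytes, gave 8.09, 7.92 and 8.04 in the Q111 striata, against 6.10, 6.31 and 6.53 in the Q20 striata. This was a 3.26-fold rise (1.71 ± 0.12, adjusted p = 1.29e-06, kept). The list of blood and lymphocyte genes, which includes Cd72, had a median change of 0.00 over 11 tested members. Of these, 2 were called (18.2%, beside 0.574% of all tested genes), Cd72 higher and Ccl19 lower. The list was chosen with earlier results known, so this share is no evidence about blood cells. The part of lymphocyte content in the rise of Cd72 was not tested.

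Several of the other large rises were of enzymes. Glo1, glyoxalase 1, which detoxifies methylglyoxal, gave 10.03, 10.31 and 9.97 in the Q111 striata, against 9.04, 9.29 and 9.19 in the Q20 striata (difference 0.93 ± 0.15, adjusted p = 0.00897). Its 2 probe sets rose by 0.93 and 0.74, and both were called when every probe set was tested. Hpgd, which inactivates prostaglandins, gave 7.86, 7.83 and 7.60 in the Q111 striata, against 6.89, 6.85 and 6.78 in the Q20 striata (0.93 ± 0.10, kept). The Q111 and Q20 arrays of both enzymes were well apart, at 0.68 for Glo1 and 0.71 for Hpgd. Abhd14a, a protein of the alpha/beta hydrolase fold, gave 8.97, 9.01 and 8.81 in the Q111 striata, against 7.94, 8.02 and 8.13 in the Q20 striata (0.90 ± 0.09, kept). Nat8f4, of the N-acetyltransferase 8 family, gave 7.89, 8.06 and 7.49 in the Q111 striata, against 6.82, 6.51 and 6.71 in the Q20 striata (1.14 ± 0.15, kept). The annotation holds 7 Nat8f genes, and reads of near-identical copies by 1 probe set were not separated here.

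Matrix, defence and ribosomal genes were also among the 15 largest rises. Fv1, a restriction factor against murine leukaemia virus that descends from an endogenous retrovirus, gave 8.56, 8.68 and 8.59 in the Q111 striata, against 7.44, 7.61 and 7.71 in the Q20 striata (1.03 ± 0.11, adjusted p = 0.000113, kept). Fndc1, a fibronectin type III domain protein, gave 7.85, 7.82 and 7.88 in the Q111 striata, against 6.79, 7.01 and 7.05 in the Q20 striata (0.90 ± 0.10, kept). Abi3bp, a protein of the extracellular matrix, gave 8.75, 8.76 and 8.66 in the Q111 striata, against 7.66, 7.89 and 8.05 in the Q20 striata (0.85 ± 0.14, adjusted p = 0.0113). In Fndc1 and Abi3bp the 3 Q111 arrays lay within about 0.1 of each other while the Q20 arrays were more scattered. Rpl34, a protein of the large ribosomal subunit, gave 9.86, 10.04 and 9.64 in the Q111 striata, against 9.04, 8.98 and 8.996 in the Q20 striata, and its difference of 0.84 ± 0.18 only just passed (adjusted p = 0.0464).

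The largest change of all was a fall in an axonemal motor. Dnah6, a dynein heavy chain of motile cilia, gave 6.07, 6.42 and 6.30 in the Q111 striata, against 8.45, 8.72 and 8.87 in the Q20 striata. The groups stood 2.03 apart, and the difference of -2.42 ± 0.13 was a 5.34-fold fall (adjusted p = 8.66e-08, kept). All 3 of its probe sets were called, with differences of -2.52 to -2.16. Cfap54, a structural protein of the same organelle, moved the other way, with 9.42, 9.66 and 9.45 in the Q111 striata, against 7.87, 8.08 and 7.74 in the Q20 striata. Its rise of 1.61 ± 0.15 (adjusted p = 2.54e-05) was kept, and its second probe set rose by 0.93. Of the 35 tested ependymal and motile cilium genes these were 2 of 4 called (11.4%, beside 0.574% of all tested genes), and the other two, Invs and Cetn4, fell. The list was drawn up with earlier results known, so this share is no evidence about cilium genes. Invs, inversin, a ciliary protein that sets left-right asymmetry, gave 8.21, 8.22 and 8.15 in the Q111 striata, against 9.15, 9.19 and 9.14 in the Q20 striata (-0.97 ± 0.09, adjusted p = 2.4e-05, kept). Cetn4, a centrin of the ciliary base, gave 7.38, 7.23 and 7.68 in the Q111 striata, against 8.10, 8.43 and 8.69 in the Q20 striata (-0.97 ± 0.19, adjusted p = 0.031). The list as a whole had 13 members higher and 22 lower, with a median of -0.03, and its mean signal per array ran from 6.82 to 6.91 in Q111 and from 6.89 to 7.07 in Q20 striata.

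Genes of immune signalling were among the deepest falls. Ccl19, a chemokine that attracts lymphocytes and dendritic cells through the receptor CCR7, gave 7.40, 7.15 and 7.22 in the Q111 striata, against 9.38, 9.49 and 9.36 in the Q20 striata. No Q111 array came within 1.95 of a Q20 array, and the 4.44-fold fall (-2.15 ± 0.11, adjusted p = 8.66e-08) was kept. All 5 Ccl19 probe sets were called, with differences between -2.61 and -2.15. A pair of them gave the same group means, and the annotation holds 4 Ccl19 entries, pseudogenes included, whose transcripts the probes could share. Ackr1, the atypical chemokine receptor of venules and red cells, gave 6.82, 6.93 and 6.69 in the Q111 striata, against 7.93, 7.85 and 7.96 in the Q20 striata (-1.10 ± 0.10, adjusted p = 2.54e-05, kept). H60b, a ligand of the natural killer receptor NKG2D, gave 6.54, 6.60 and 5.87 in the Q111 striata, against 7.50, 7.95 and 7.44 in the Q20 striata (-1.29 ± 0.19, kept). Lta4h, the enzyme that makes leukotriene B4, gave 7.35, 7.80 and 7.46 in the Q111 striata, against 8.53, 8.63 and 8.50 in the Q20 striata (-1.01 ± 0.18, adjusted p = 0.0155). All 4 fell at least 2-fold, and H60b was the most scattered of them, with Q111 replicate 3 far below the other two.

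Other deep falls covered adhesion, translation and transport. Cdhr1, a cadherin known from photoreceptors, gave 6.97, 7.13 and 6.87 in the Q111 striata, against 8.71, 8.95 and 8.75 in the Q20 striata, a 3.52-fold fall (-1.82 ± 0.10, adjusted p = 8.66e-08, kept). Rpl26, of the large ribosomal subunit, gave 7.61, 7.24 and 7.03 in the Q111 striata, against 9.16, 9.05 and 8.85 in the Q20 striata, a 3.32-fold fall (-1.73 ± 0.15, kept). The annotation names 6 Rpl26 pseudogenes, so its signal is uncertain where probes match them. Slc15a2, a carrier of small peptides, gave 7.63, 7.95 and 7.59 in the Q111 striata, against 8.76, 8.84 and 8.69 in the Q20 striata (-1.04 ± 0.12, kept). Sfrp1, a secreted antagonist of Wnt ligands, gave 6.87, 7.17 and 7.14 in the Q111 striata, against 7.87, 8.34 and 8.03 in the Q20 striata (-1.02 ± 0.14, adjusted p = 0.00173, kept). Cyb5a, cytochrome b5, an electron donor in lipid metabolism, gave 9.52, 9.80 and 9.40 in the Q111 striata, against 10.46, 10.64 and 10.49 in the Q20 striata (-0.96 ± 0.12, kept). In each of these 5 genes the highest Q111 array lay at least 0.67 below the lowest Q20 array.

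Of the 15 largest falls 3 were transcripts without a known role. C330024D21Rik gave 6.25, 5.40 and 6.28 in the Q111 striata, against 7.67, 7.63 and 8.04 in the Q20 striata (-1.80 ± 0.21, adjusted p = 0.000228), with Q111 replicate 2 well below the other Q111 arrays. Nlrp5-ps, a pseudogene, gave 6.64, 6.34 and 6.71 in the Q111 striata, against 7.68, 7.96 and 8.11 in the Q20 striata (-1.35 ± 0.13). Gm5148, a predicted gene, gave 6.25, 6.47 and 6.34 in the Q111 striata, against 7.57, 7.65 and 7.77 in the Q20 striata (-1.31 ± 0.14). All 3 calls were kept.

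The stretches just upstream of the start sites of Ccl19, Cd72, Dnah6 and Rpl26 are shown because these genes carried some of the widest and best separated changes in each direction. The genes and the motifs were chosen after the values were seen. The sequences are 250 bases before the RefSeq start on GRCm38.p6, written 5′ to 3′ along the gene. Capitals mark TGACGTCA, the cAMP response element, or CCAAT, the CCAAT box, which reads ATTGG on the other strand. The regions are chr4:42756366-42756615 on the minus strand for Ccl19, chr4:43454627-43454876 on the minus strand for Cd72, chr6:73221632-73221881 on the minus strand for Dnah6 and chr11:68901316-68901565 on the plus strand for Rpl26.
Ccl19: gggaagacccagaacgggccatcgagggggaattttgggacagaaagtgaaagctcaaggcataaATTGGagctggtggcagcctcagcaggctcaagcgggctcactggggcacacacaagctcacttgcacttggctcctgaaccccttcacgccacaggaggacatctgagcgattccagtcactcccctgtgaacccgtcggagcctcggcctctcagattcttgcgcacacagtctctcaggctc
Cd72: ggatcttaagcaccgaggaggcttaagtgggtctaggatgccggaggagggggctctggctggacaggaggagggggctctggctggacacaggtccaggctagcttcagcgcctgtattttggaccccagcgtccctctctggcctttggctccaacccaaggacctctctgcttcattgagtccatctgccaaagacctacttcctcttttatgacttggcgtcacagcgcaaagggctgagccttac
Dnah6: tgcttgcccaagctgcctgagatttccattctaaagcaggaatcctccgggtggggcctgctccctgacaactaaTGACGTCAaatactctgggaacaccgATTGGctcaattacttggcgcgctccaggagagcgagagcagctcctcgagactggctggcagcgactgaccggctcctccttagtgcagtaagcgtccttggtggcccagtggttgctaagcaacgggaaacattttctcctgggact
Rpl26: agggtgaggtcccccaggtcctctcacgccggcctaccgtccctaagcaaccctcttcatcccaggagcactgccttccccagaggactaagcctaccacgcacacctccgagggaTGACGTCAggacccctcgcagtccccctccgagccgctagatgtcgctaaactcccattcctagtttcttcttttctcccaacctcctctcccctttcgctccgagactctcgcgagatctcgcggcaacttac
Dnah6 and Rpl26 each hold a cAMP response element, Dnah6 and Ccl19 each hold a CCAAT box, and none of the 4 motifs searched lies in the Cd72 stretch.

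Motifs were counted on both strands of RefSeq windows from 250 bases before to 50 after a start, which 39 higher and 33 lower genes had. TGACGTCA was in 0 of 49 windows of higher genes and in 4 of 40 windows of lower genes (10%), those of Ints7, Dctn3, Dnah6 and Rpl26, against 2.66% of the 16442 windows of tested genes and 1.79% of all windows. CCAAT was in 26.5% of windows of higher genes and 55.0% of windows of lower genes, against 36.8% of windows of tested genes. TATAAA was in 16.3% and 7.5% of the windows of higher and lower genes, against 8.69%, and the GC box GGGCGG was in 55.1% and 55.0%, against 55.1%. TGACGTCA does not contain any of the other motifs searched, and each motif was counted separately. A match describes the letters alone, and no difference between these shares was tested.

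Among the remaining called genes, receptors and signalling proteins moved both ways. Gabra2, the alpha-2 subunit of GABA-A receptors, gave 10.10, 10.01 and 9.91 in the Q111 striata, against 10.57, 10.74 and 10.71 in the Q20 striata. Its fall of -0.67 ± 0.09 (adjusted p = 0.00138, kept) was the only called change among 18 tested GABA genes, whose median was -0.01, with Gabbr2, a GABA-B receptor subunit, at 0.20 ± 0.10 and Slc6a11, the GABA transporter GAT-3, at 0.20 ± 0.11. Tacr3, the neurokinin B receptor, averaged 7.47 ± 0.19 in Q111 and 6.65 ± 0.11 in Q20 striata (SD, n = 3 each) and rose by 0.81 ± 0.15 (SE, adjusted p = 0.0159). Sstr5, a somatostatin receptor, rose by 0.63 ± 0.11 (adjusted p = 0.0128), and Glp1r, the receptor of glucagon-like peptide 1, rose by 0.51 ± 0.10 (adjusted p = 0.0296). Adcy1, a calmodulin-stimulated adenylyl cyclase, averaged 9.70 ± 0.06 in Q111 and 9.18 ± 0.13 in Q20 striata and rose by 0.52 ± 0.09 (adjusted p = 0.0138). Thrb, a nuclear receptor for thyroid hormone, rose by 0.49 ± 0.10, and Ror1, a receptor for Wnt5a, rose by 0.80 ± 0.16. All of these rises were called, and of the 6 genes none was kept when each array was left out in turn.

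Called genes of other synaptic and axonal proteins included falls and a rise. Slc17a8, the vesicular glutamate transporter VGLUT3 of cholinergic interneurons among other cells, fell by 0.52 on the log2 scale, with means of 7.47 ± 0.15 in Q111 and 7.997 ± 0.14 in Q20 striata (adjusted p = 0.0296). Shisa6, an auxiliary protein of AMPA receptors, changed by -0.70 ± 0.15, and Trpc4, a cation channel, by -0.55 ± 0.11. Lingo1, a co-receptor that limits axon growth and myelination, averaged 8.68 ± 0.04 in Q111 and 9.53 ± 0.13 in Q20 striata and changed by -0.85 ± 0.10 (adjusted p = 0.000548, kept). Dcc, the netrin receptor that guides axons, changed by -0.54 ± 0.09, and Dctn3, a subunit of the dynactin motor complex, by -0.82 ± 0.12 (kept). Lypd1, which binds nicotinic receptors, changed by -0.69 ± 0.13. Against these, Sorcs1, a sorting receptor of neurons, averaged 9.47 ± 0.02 in Q111 and 8.88 ± 0.09 in Q20 striata and rose by 0.59 ± 0.09 (adjusted p = 0.00349, kept).

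Redox and metabolic enzymes also moved in both directions. Gstp1, which conjugates glutathione, averaged 11.27 ± 0.14 in Q111 and 10.60 ± 0.09 in Q20 striata and rose by 0.67 ± 0.13 (adjusted p = 0.0227). Aldh1a1, which makes retinoic acid from retinaldehyde, rose by 0.73 ± 0.15, and Mt3, the brain metallothionein, by 0.40 ± 0.08, the smallest called change. Slc7a11, the cystine and glutamate exchanger that feeds glutathione synthesis, averaged 7.71 ± 0.21 in Q111 and 8.38 ± 0.11 in Q20 striata and changed by -0.67 ± 0.12 (adjusted p = 0.0188). Alad, of haem synthesis, changed by -0.66 ± 0.13, Hsd17b7, of cholesterol synthesis, by -0.64 ± 0.12, Epm2a, the glycogen phosphatase laforin, by -0.77 ± 0.13, and Car12, a carbonic anhydrase, by -0.76 ± 0.12 (kept). The calls in this group were therefore higher for Gstp1, Aldh1a1 and Mt3 and lower for the other five.

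Mitochondrial and protein-handling genes contributed single calls. Timmdc1, an assembly factor of complex I, rose by 0.68 ± 0.14, Mrpl20, a mitochondrial ribosomal protein, by 0.73 ± 0.14, and Oxsm, of mitochondrial fatty acid synthesis, by 0.66 ± 0.10. Timmdc1 had the narrowest separation of all called genes, with 9.36, 9.48 and 9.10 in the Q111 striata, against 8.59, 8.95 and 8.38 in the Q20 striata. Psmd6, a subunit of the proteasome lid, rose by 0.60 ± 0.11 (adjusted p = 0.0188). Cryab, a small heat shock protein, averaged 9.46 ± 0.12 in Q111 and 10.01 ± 0.07 in Q20 striata and changed by -0.54 ± 0.11 (adjusted p = 0.0301).

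Genes of defence and matrix were called in smaller steps. Aoah, which inactivates bacterial lipopolysaccharide, rose by 0.75 ± 0.13, Bank1, a scaffold of B-cell signalling, by 0.68 ± 0.11, and Masp2, a protease of the complement system, by 0.58 ± 0.10. Aim2, a sensor of cytosolic DNA, changed by -0.57 ± 0.10, and H2-Q2, a class I histocompatibility gene, by -0.65 ± 0.11. Mxra8, a surface protein that some alphaviruses use for entry, averaged 8.88 ± 0.08 in Q111 and 8.24 ± 0.09 in Q20 striata and rose by 0.64 ± 0.09 (adjusted p = 0.00308, kept), and Col6a4, a chain of collagen VI, rose by 0.67 ± 0.12. The Q20 signals of Aoah and Bank1 were dim, so their folds have no exact size. Aoah was bright enough to be tested only through the Q111 arrays with mGluR5.

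The other called genes had changes between -0.81 and 0.81. Baalc, a protein of brain and of immature blood cells, rose by 0.81 ± 0.13 and Dpy19l1, a mannosyltransferase, by 0.81 ± 0.12 (both kept). Mpzl2, an adhesion protein, rose by 0.79 ± 0.14, Klk6, a protease of oligodendrocytes, by 0.72 ± 0.15, Cpq, a carboxypeptidase, by 0.70 ± 0.11 (kept), and Slc37a4, the glucose-6-phosphate transporter, by 0.60 ± 0.12. Further rises were called for Olfm4, Fut10, Zfp760, Abhd10, Prss41, Fancg, Pm20d1, Haus8 and Fxyd2, between 0.45 for Fxyd2 and 0.67 for Olfm4. The Q20 signals of Mpzl2, Olfm4 and Pm20d1 were dim. On the Q20 arrays alone Mpzl2 and Olfm4 would not have been bright enough, so they were tested only through Q111 arrays. Eapp, which binds E2F factors, changed by -0.81 ± 0.13, Six6, a homeobox factor with a dim Q111 signal, by -0.76 ± 0.15, Ocel1 by -0.70 ± 0.11 (kept), and Mid1, an X-linked ubiquitin ligase, by -0.64 ± 0.11. Further falls were called for Spink8, dim in both groups, Nxpe4, Dym, Rpain, Dtd2, Ints7, Nup210 and Zfp236, between -0.54 for Spink8 and -0.46 for Zfp236. Spink8 and Six6 were bright enough to be tested only through Q20 arrays, with and without mGluR5. A further 2 clone transcripts were called, 1 in each direction.

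The same alleles were then compared in mice without mGluR5, on 6 arrays that share none with the 6 compared above. The estimate of spread came from all 12 arrays in both comparisons. Of the 96 genes, 73 changed in the same direction there (76.0%), beside 60.2% of all tested genes. In mice without mGluR5 148 genes were called (0.885%), and 33 genes were called in both, which is 34.4% of the 96 and 22.3% of the 148. Of these 33, 27 moved the same way, 8 higher and 19 lower, and 6 moved opposite ways. The test of the difference between the 2 effects called 73 genes (0.437%), 28 of them among the 96.

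**Figure D3:**
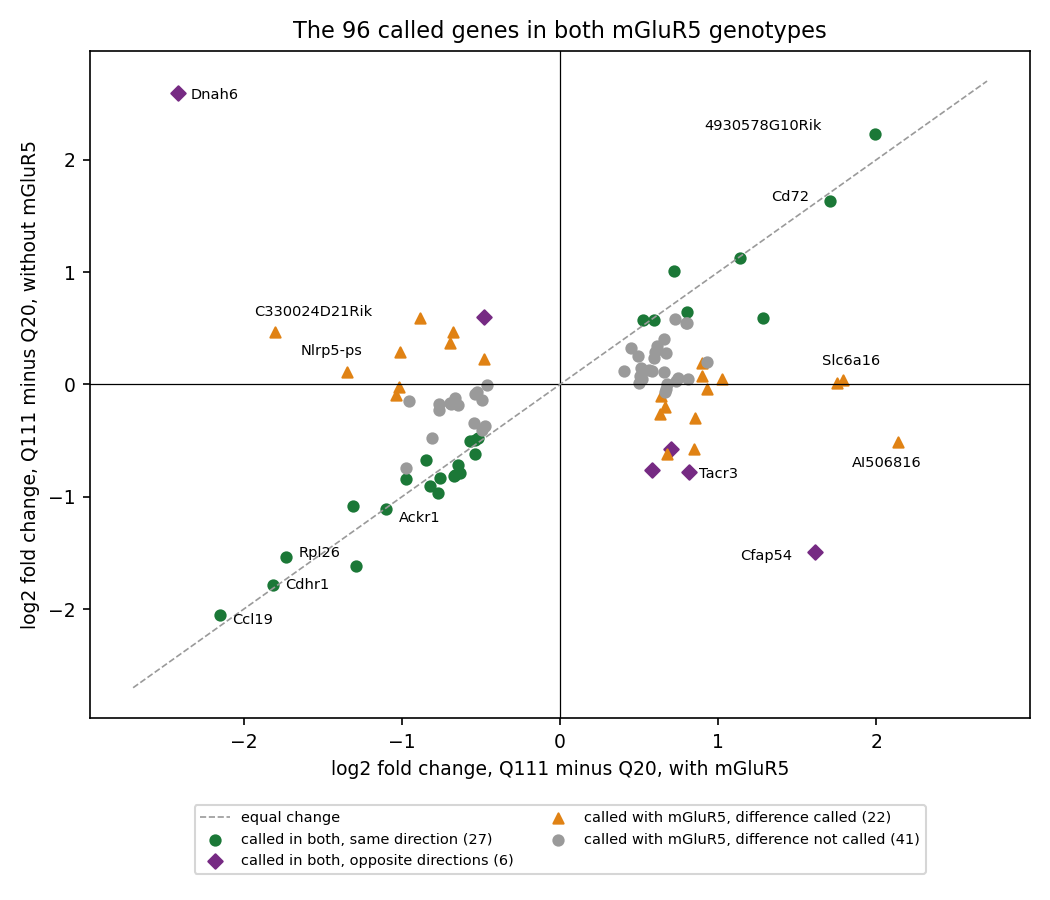
Each point is 1 of the 96 called genes, with its log2 difference between Q111 and Q20 striata with mGluR5 on the horizontal axis and without mGluR5 on the vertical axis. The 27 green points called in both, with the same direction, lie around the dashed line of equal change. The 6 purple diamonds lie in the quadrants of opposite sign. The 22 orange triangles have a called difference between the effects without a call in mice lacking mGluR5.

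The 27 genes shared in direction had a median size of 0.81 with mGluR5 and 0.83 without it. For none of the 27 was the difference between the effects called. The change without mGluR5 was 0.46 to 1.41 times that with it. These genes were picked by a call in both comparisons, so their likeness is partly built in and is no evidence of equal effects. The chemokine gene Ccl19 changed by -2.15 with mGluR5 and by -2.06 without it, and Cdhr1 by -1.82 and -1.78. Among the rises, Cd72 changed by 1.71 with mGluR5 and 1.63 without it, and Nat8f4 by 1.14 and 1.12. The lower genes of this kind also included Rpl26, Ackr1, H60b, Invs, Lingo1, Slc7a11, Alad, Cryab, Epm2a, Car12, Dctn3, Aim2, Hsd17b7 and Mid1, and the higher ones Klk6, Dpy19l1, Slc37a4 and Fancg.

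The 6 genes that were called in opposite directions were led by the cilium pair. Dnah6 changed by -2.42 in mice with mGluR5 and by 2.59 in mice without it, a difference between effects of -5.01 (adjusted p = 1.04e-09). Cfap54 changed by 1.61 with mGluR5 and by -1.49 without it (adjusted p of the difference = 1.65e-06). Tacr3 changed by 0.81 and -0.78, Abhd10 by 0.58 and -0.76, Cpq by 0.70 and -0.57, and Ints7 by -0.48 and 0.60, in the same order of genotypes. All 6 therefore switched sides between the mGluR5 genotypes.

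A further 22 genes had a called difference between the effects and no call in mice without mGluR5. Many of them had the opposite sign there, such as Timmdc1 (0.68 with and -0.62 without mGluR5), Rpl34 (0.84 and -0.58) and Pcdhb6 (-0.89 and 0.59). Others lay near 0 or kept a smaller change in the same direction, such as Fndc1 (0.90 and 0.19). Slc6a16 changed by 1.79 with mGluR5 and 0.04 without it (adjusted p of the difference = 2.31e-05), and Fv1 by 1.03 and 0.04 (adjusted p = 0.00825). Hpgd changed by 0.93 and -0.04, Slc15a2 by -1.04 and -0.09, and Sfrp1 by -1.02 and -0.02. In these 5 genes the change without mGluR5 stayed within 0.1 of 0. Hpgd averaged 7.76 in Q111 and 6.84 in Q20 striata with mGluR5, and 7.85 and 7.89 without it. In the same order, Slc15a2 averaged 7.72, 8.76, 7.92 and 8.02, and Sfrp1 7.06, 8.08, 7.18 and 7.20. In Hpgd, Slc15a2 and Sfrp1 the group that stood apart was the Q20 striata with mGluR5. In Slc6a16 and Fv1 it was the Q111 striata with mGluR5, at 8.61 against 7.59 to 7.65 in the other groups for Fv1. The last 41 genes had neither a call without mGluR5 nor a called difference, and 39 of them kept their direction, with a median size of 0.66 with mGluR5 and a median change of 0.17 in that direction without it. Gabra2 was one of them, with -0.67 and -0.13 (adjusted p of the difference = 0.115).

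Gene lists for cell types and pathways gave few calls. The 33 lists held 799 tested genes, of which 21 were called (2.63%), beside 0.574% of all tested genes, and some of these 21 were placed in lists with earlier results known, so the share is not evidence about the lists. The other 75 called genes were in no list. In 30 lists the median lay within 0.1 of 0, and 18 lists held no called gene. Those 18 had medians between -0.06 for direct-pathway markers and 0.09 for immediate early genes.

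**Figure D4:**
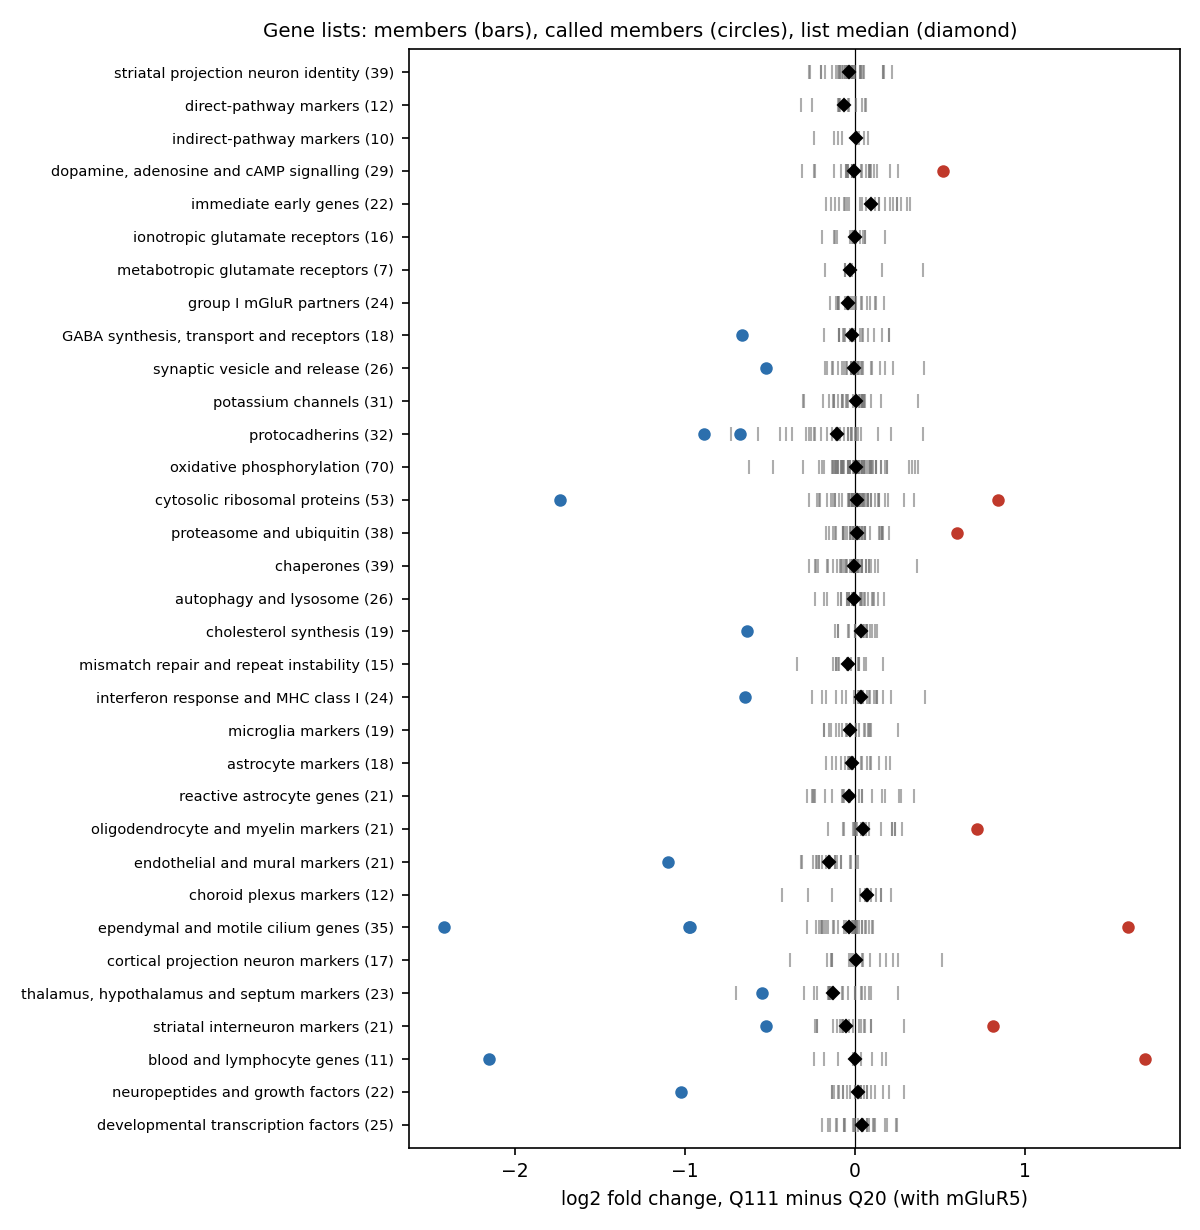
Each row is a gene list with its number of tested members, and the horizontal axis is the log2 difference between Q111 and Q20 striata with mGluR5. Grey bars are members that were not called, red and blue circles are called members, and black diamonds are list medians, which lie near 0 in most rows and furthest below 0 for endothelial and mural markers.

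No identity gene of striatal projection neurons was called. Of 39 tested members, 10 were higher and 29 lower, with a median of -0.04, against -0.01 for all genes. The smallest unadjusted p values belonged to Scn4b, a sodium channel subunit, at -0.27 ± 0.12 (adjusted p = 0.684), Rxrg, a retinoid receptor, at -0.20 ± 0.09, and Actn2, an actin crosslinker, at 0.22 ± 0.11. Among 12 direct-pathway markers Eya1 differed by -0.32 ± 0.11 (adjusted p = 0.403), Isl1 by -0.25 ± 0.10 and Slc35d3 by -0.09 ± 0.10. Among 10 indirect-pathway markers Cd4 differed by -0.24 ± 0.08 (adjusted p = 0.445), Grik3 by -0.12 ± 0.09 and Sp9 by -0.10 ± 0.08. In the list of dopamine, adenosine and cAMP signalling 1 of 29 genes was called, Adcy1, with a list median of 0.00, and Rgs14, a regulator of G-protein signalling, differed by -0.31 ± 0.12 (adjusted p = 0.531) and Adcy2, an adenylyl cyclase, by 0.21 ± 0.10.

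The immediate early genes, which neurons induce when active, had 14 members higher and 8 lower, with a median of 0.09 and no call. Jun differed by 0.27 ± 0.12 (adjusted p = 0.675), Atf3 by 0.25 ± 0.12 and Nr4a3 by 0.32 ± 0.21. The mean signal of the list ran from 7.77 to 8.18 over the Q111 arrays and from 7.88 to 7.95 over the Q20 arrays, so the groups overlapped. Without Q111 replicate 2 its median was 0.00, and without Q111 replicate 3 it was 0.19.

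The lists of glutamate receptors and of group I receptor partners held no call. Shisa6 and Slc17a8, called above, were not in these lists. None of 16 ionotropic receptor genes, 7 metabotropic receptor genes and 24 partners of group I metabotropic receptors passed the test, and their medians were 0.00, -0.03 and -0.04. Grm8, a presynaptic group III receptor, had the smallest p among them, with means of 7.39 in Q111 and 6.99 in Q20 striata (0.40 ± 0.12, adjusted p = 0.232). Its relatives Grm7 and Grm4 differed by -0.17 ± 0.09 and 0.16 ± 0.10. Grin2b, an NMDA receptor subunit, differed by -0.19 ± 0.10, and the kainate receptor genes Grik1 and Grik3 by 0.18 ± 0.11 and -0.12 ± 0.09. Among the partners Homer3, a scaffold of mGluR5, differed by 0.17 ± 0.13, Mgll, which degrades an endocannabinoid, by 0.13 ± 0.10 and Dlgap3, a postsynaptic scaffold, by -0.10 ± 0.09. Among 26 genes of synaptic vesicles Slc17a8 was called, and Sypl, a vesicle protein related to synaptophysin, came close at 0.41 ± 0.09 (adjusted p = 0.060), while Synpr, synaptoporin, differed by -0.17 ± 0.09. No potassium channel gene of 31 was called, and Kcnj10, the inward rectifier of astrocytes, differed by 0.37 ± 0.09 (adjusted p = 0.105), the voltage-gated Kcnh4 by -0.31 ± 0.10 (adjusted p = 0.314) and the calcium-activated Kcnn2 by -0.30 ± 0.11 (adjusted p = 0.481).

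The protocadherins, adhesion proteins of neurons encoded in clusters, had 25 of 32 tested members lower and 7 higher. Pcdhb6 gave 8.39, 8.68 and 8.14 in the Q111 striata, against 8.86, 9.54 and 9.47 in the Q20 striata, and Pcdhb11 gave 6.99, 7.38 and 7.28 in the Q111 striata, against 7.71, 8.01 and 7.96 in the Q20 striata. Both falls were called (-0.89 ± 0.17 with adjusted p = 0.0232 and -0.67 ± 0.12 with adjusted p = 0.0191), and in mice without mGluR5 these genes changed by 0.59 and 0.46. Pcdhb2 differed by -0.73 ± 0.18 (adjusted p = 0.125). The list's median was -0.11, against 0.05 in mice without mGluR5, and 9 members were lower in every Q111 array than in any Q20 array, beside 5.3% of all tested genes. This list too was chosen with earlier results known, so the count is no evidence about protocadherins. The mean signal of the list overlapped between groups, at 7.63 to 7.91 in Q111 and 7.73 to 7.99 in Q20 striata. The annotation holds 22 Pcdhb genes with similar sequences, whose probes may share signal.

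Energy, ribosome and protein quality genes gave few calls. Of 70 oxidative phosphorylation genes 35 were higher and 35 lower, with no call, and Ndufa12 and Ndufb10, of complex I, differed by -0.62 ± 0.17 (adjusted p = 0.189) and -0.48 ± 0.15 (adjusted p = 0.284), while Sdhc, of complex II, differed by 0.37 ± 0.10 (adjusted p = 0.206). Of 53 cytosolic ribosomal protein genes 29 were higher and 24 lower, and only Rpl34, higher, and Rpl26, lower, were called, with Rps13 at 0.35 ± 0.12 (adjusted p = 0.43). Of 38 proteasome and ubiquitin genes Psmd6 was called, and Psme2 and Psmc5, both of proteasome particles, differed by 0.20 ± 0.10 and 0.16 ± 0.09. None of the 39 tested genes in the chaperone list was called, with Calr, the calreticulin gene, at 0.37 ± 0.09 (adjusted p = 0.144). Hspa2 and Hspb1, heat shock proteins, were at -0.22 ± 0.11 and -0.23 ± 0.12. Cryab, the small heat shock protein called lower above, was not in that list. None of 26 autophagy and lysosome genes was called, with Idua and Hexa, lysosomal hydrolases, at -0.23 ± 0.10 and -0.16 ± 0.10, and Becn1, of autophagosome formation, at 0.17 ± 0.09. Of 15 genes of mismatch repair and repeat instability none was called, and Pcna, the replication clamp, differed by -0.34 ± 0.15 (adjusted p = 0.682), Pms1 by 0.17 ± 0.09 and Pms2 by -0.13 ± 0.11. Of 19 cholesterol synthesis genes Hsd17b7 was called, while the list median was 0.04, with Fdps at 0.09 ± 0.08 and Insig1 at 0.12 ± 0.11.

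Markers of other cell types were read as lists. In bulk tissue fewer cells of a type and less RNA per cell cannot be told apart. Endothelial and mural markers stood lowest, with 19 of 21 lower, a median of -0.15 and 1 call, Ackr1. Tagln, of smooth muscle, differed by -0.31 ± 0.13 (adjusted p = 0.593) and Flt1, a vascular growth factor receptor, by -0.23 ± 0.10. The mean signal of the list ran from 7.49 to 7.70 in Q111 and from 7.69 to 7.83 in Q20 striata, so the groups overlapped slightly, and in mice without mGluR5 the median was -0.29. The part of vascular content in the fall of Ackr1 was not tested.

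Oligodendrocyte and myelin markers had 16 of 21 members higher, with a median of 0.05, or -0.01 without Q20 replicate 2. Klk6 was called, and Mog and Mag, both of the myelin sheath, differed by 0.28 ± 0.10 (adjusted p = 0.488) and 0.24 ± 0.11. The list mean ran from 9.46 to 9.69 in Q111 and from 9.35 to 9.55 in Q20 striata. The part of oligodendrocyte content in the rise of Klk6 was not tested. Astrocyte markers had a median of -0.02, reactive astrocyte genes -0.03 and microglia markers -0.03, all without a call. Of the reactive genes, Cd14, a receptor for bacterial lipopolysaccharide, differed by -0.24 ± 0.10 (adjusted p = 0.603), Lcn2, lipocalin 2, by 0.35 ± 0.14 (adjusted p = 0.605) and Vim, an intermediate filament protein, by -0.28 ± 0.12. Of the astrocyte markers, Gjb6, a connexin, differed by 0.21 ± 0.09, S100b, a calcium-binding protein, by 0.18 ± 0.10 and Sox9, a transcription factor, by -0.13 ± 0.08. Of the microglia markers, Aif1, a calcium-binding protein, differed by 0.26 ± 0.11, Selplg, a ligand of P-selectin, by -0.18 ± 0.09 and Csf1r, a growth factor receptor, by -0.15 ± 0.11. In the list of interferon response and histocompatibility genes H2-Q2 was called lower, and Ifit1, induced by interferon, differed by 0.41 ± 0.12 (adjusted p = 0.248), and Mx2, likewise induced, by -0.25 ± 0.10.

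Markers of neighbouring regions were also listed, since a dissection can include them. Those of thalamus, hypothalamus and septum had 16 of 23 members lower, with a median of -0.13, or -0.02 without Q20 replicate 1. Trpc4 was called, and Prkcd, a protein kinase C of thalamic neurons, differed by -0.70 ± 0.21 (adjusted p = 0.254), and Rgs16 by -0.15 ± 0.08. The list mean ran from 7.14 to 7.22 in Q111 and from 7.16 to 7.45 in Q20 striata, and its part in the fall of Trpc4 was not tested. Cortical markers had a median of 0.01, with Tbr1 at 0.51 ± 0.19 (adjusted p = 0.481), Fezf2 at -0.38 ± 0.15 and Nptx1 at 0.18 ± 0.09. Choroid plexus markers had a median of 0.07, with Clic6 at -0.28 ± 0.17, Slc4a5 at 0.21 ± 0.16 and Igf2 at -0.13 ± 0.11, and their mean overlapped at 6.45 to 6.77 in Q111 and 6.40 to 6.86 in Q20 striata. Striatal interneuron markers had 2 calls of 21, Tacr3 higher and Slc17a8 lower, while Nos1, of nitric oxide interneurons, differed by -0.24 ± 0.10. Among 22 neuropeptides and growth factors Sfrp1 was called, Bdnf differed by 0.20 ± 0.12 and Nxph1 by 0.17 ± 0.10, and the median was 0.02. None of 25 developmental transcription factors was called, with Hoxd9 at 0.24 ± 0.10, Onecut1 at 0.25 ± 0.12 and Pax6 at -0.19 ± 0.12.

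The number of called genes differed from chromosome to chromosome, a description that was not tested. Chromosome 17 held 9 of them, 8 higher and 1 lower, which is 1.11% of its 808 tested genes. Chromosome 18 held 7, all lower (1.67% of 418), chromosome 4 held 11 (1.07%) and chromosome 9 held 11 (1.17%), while chromosome 2 held none among 1339 tested genes. The 7 lower genes on chromosome 18 were Cyb5a, Pcdhb6, Pcdhb11, Dcc, Dym, Zfp236 and a clone. Chromosome 19 held 4, all higher, including Gstp1, Aldh1a1 and Sorcs1. None of the 200 tested genes around Htt on chromosome 5, 100 on each side, was called, and their median change was -0.02.

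**Figure D5:**
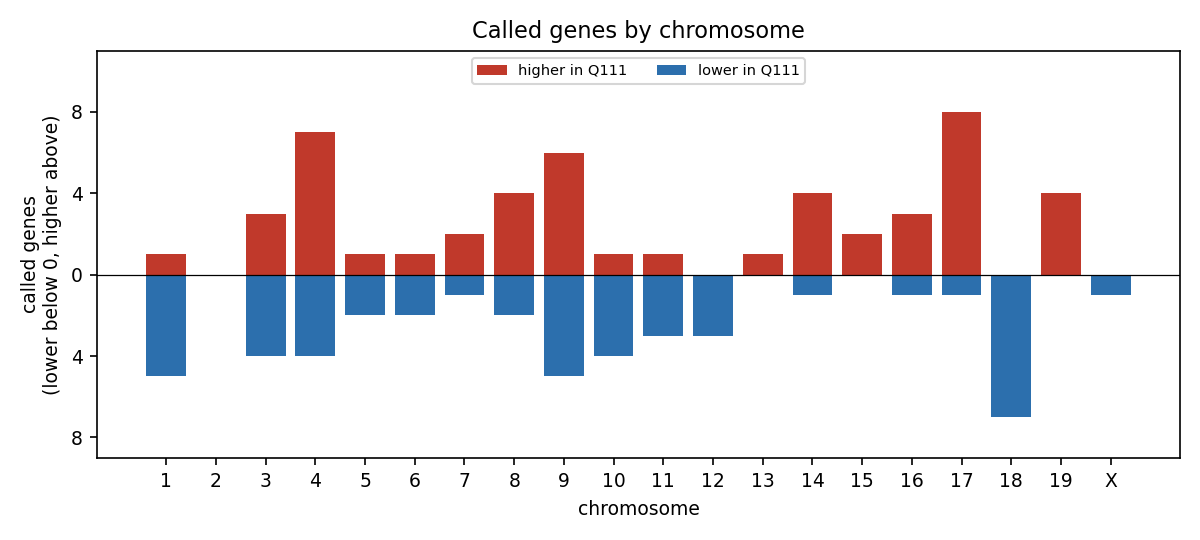
Bars count the called genes on each chromosome, with those higher in Q111 striata above 0 in red and those lower below 0 in blue, leaving out 1 higher gene, 4930578G10Rik, without a position. Chromosomes 4 and 9 hold the most, 11 each, and all 7 called genes of chromosome 18 are lower.

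Some called genes were chromosomal neighbours. Among 95 called genes that could be placed, 24 had a called neighbour within 5 tested genes up or down the chromosome (25.3%), beside 840 of 16656 tested genes (5.04%). They formed 11 runs, of which 8 had 1 direction. On chromosome 14 Psmd6, Oxsm and Thrb rose together, and on chromosome 17 Fndc1 rose beside Gm1604a and Glo1 beside Glp1r. Mrpl20 and Mxra8 rose as neighbours on chromosome 4, as did 1500015L24Rik and Aldh1a1 on chromosome 19, while Ackr1 and Aim2 fell on chromosome 1. On chromosome 18 Pcdhb6 fell beside Pcdhb11, and Dcc beside 4930503L19Rik. Mixed runs were Dctn3, Ccl19 and Fancg on chromosome 4, with Fancg higher, Cfap54 higher beside Lta4h lower on chromosome 10, and Haus8 higher beside Ocel1 lower on chromosome 8. The stock from which each stretch was inherited was not analysed here.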

How the data were processed

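The deposited table holds log2 signals of 35556 probe sets on 12 whole-transcript arrays, made by the authors with RMA in Partek, per the submitters' processing notes, and with Partek Genomics Suite 6.5, per the series text. RMA includes a step that equalizes the arrays' distributions, so a global shift would largely be removed. The deposited values still differed in width, with interquartile ranges from 2.56 to 2.95. Platform annotation gave 1 gene symbol for 21789 sets, several for 1621 and none for 12146, and 91 of the named sets had no RefSeq match (GRCm38.p6, used for names, chromosomes and neighbours). Each of 19938 genes was represented by its set with the highest mean. It was tested when above the 25th percentile of the array in at least 3 arrays, leaving 16721 genes.

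limma 3.58.1 (R 4.3.3) fitted 1 mean per group over all 12 arrays, with 8 residual and 6.88 prior degrees of freedom. Tests were two-sided, Benjamini-Hochberg adjusted over all tested genes and called below 0.05. The steps were tested on simulated data. Alternatives varied the variance model, array weights, the replicate number as a block, the scaling, the filter, the probe set and the arrays. Named genes were Htt, Grm5, all called genes, and the 3 members of each list with the smallest unadjusted p. The 15 largest rises and falls are given in every array. Small non-coding RNAs were otherwise counted only. The members and lists were chosen with earlier results of these data known. Two-sided 95% intervals come from limma. Plots used matplotlib 3.10.9 in Python 3.11.15 with pandas 2.3.3.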

Additional observations from a re-analysis of the deposited data

Results flagged for a closer look

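The 28 genes here were called in the comparison with mGluR5, and the effect of the Q111 allele differed between mice with and without mGluR5 in the interaction test of limma (adjusted p below 0.05). The value given is the log2 effect of Q111 against Q20 with mGluR5 minus that without it. The 6 genes called in opposite directions had differences of -5.01 for Dnah6, 3.10 for Cfap54, 1.59 for Tacr3, 1.34 for Abhd10, 1.28 for Cpq and -1.08 for Ints7. Among the other genes higher with mGluR5, the difference was 2.64 for AI506816, 1.74 for Slc6a16, 1.74 for Snord53, 1.42 for Rpl34, 1.29 for Timmdc1 and 1.15 for Abi3bp. AI506816 was dim in 3 of the 4 groups, with means of 6.57 in Q111 and 4.43 in Q20 striata with mGluR5, and 3.97 in Q111 and 4.48 in Q20 striata without it, so its difference has no exact size. It was 0.98 for Fv1, 0.97 for Hpgd, 0.90 for Sstr5, 0.86 for Fut10, 0.83 for Abhd14a, 0.74 for Mxra8 and 0.71 for Fndc1. Among the other genes lower with mGluR5, it was -2.26 for C330024D21Rik, -1.48 for Pcdhb6, -1.46 for Nlrp5-ps, -1.30 for Lta4h and -1.14 for Pcdhb11. It was -1.07 for Ocel1, -1.0 for Sfrp1, -0.95 for Slc15a2 and -0.71 for Dtd2. Chance gives some calls among so many tests, and the cause of the differences was not tested.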

How the results depend on the processing

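No called gene reversed direction under an alternative that tested it. Of the 80 called genes tested under every alternative, 22 stayed called throughout, 10 higher and 12 lower. The other 16 were too dim for the filter at the median, and 3 of them, all higher, stayed called elsewhere. The count of called genes with mGluR5 was 35 without moderation, 44 with array weights, 204 with the replicate number as a block, 266 with the interquartile range of each array as a covariate and 47 with the 2 groups alone, against 96. Leaving out each array gave 44 to 128, with 44 without Q20 replicate 3, 45 without Q111 replicate 1, 47 without Q20 replicate 2 and 35.2% of the calls higher without Q111 replicate 2, against 52.1% in the full fit. Without mGluR5 the count was 91 without moderation, 3270 with array weights, 343 with the block, 353 with the covariate and 94 without the widest and the narrowest array, against 148. Leaving out each array gave 74 to 232. The count of differing effects was 19 without moderation, 153 with the covariate and 38 without the widest and the narrowest array, against 73, and leaving out each array gave 34 to 69. With fewer arrays fewer degrees of freedom remained, and otherwise the cause was not tested. The estimation of array weights stopped before it converged, with weights from 0.178 to 12.3, so those counts are unsettled. Deviations of same-numbered arrays correlated at 0.22, 0.54 and -0.01 between the compared groups, and 3 of 6 arrays correlated best with their own number. Over all groups 11 of 18 same-numbered pairs exceeded 0.1, and the pairs of replicate 2 lay between 0.34 and 0.57. As not every pair exceeded 0.1, the numbers were not taken to pair the arrays. This rule does not show that a shared effect of the replicate number was absent, and the main fit leaves such an effect out. With the number as a block, all 96 genes stayed called. Replicate 2 was also the widest array in each group, and the reason for this likeness was not tested. Of the uncalled genes named, 5 striatal markers and Insig1 changed sign. Quantile normalization gave -0.018 for Drd2 and -0.020 for Penk. The covariate gave -0.050 for Drd1, -0.0093 for Drd2 and 0.046 for Tac1. Without the widest and the narrowest array the values were -0.022 for Drd1, -0.019 for Drd2, 0.0063 for Ppp1r1b and 0.12 for Tac1. Leaving out each array gave -0.042 to 0.079 for Drd1, -0.019 to 0.039 for Drd2, -0.036 to 0.072 for Penk, -0.091 to 0.0063 for Ppp1r1b, -0.18 to 0.12 for Tac1 and -0.0037 to 0.20 for Insig1. The dimmest genes were not tested, and 3 arrays a group limit what could be called.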
